A study of Lotus japonicus with 24 samples.

Results

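The comparison described here is that of shoots of symbiotic Ljasn1-2 plants with shoots of nitrogen-fed Ljasn1-2 plants of Lotus japonicus, a model legume. It rests on 6 of the 24 RNA-seq libraries of the study, namely 3 of shoots under symbiotic (S) conditions and 3 of shoots under non-symbiotic (NS) conditions, with all 30243 genes of the deposited table. Of these genes, 16169 reached 1 FPKM (fragments scaled by gene length and by library size) in at least 3 of the 6 libraries and were tested. Ljasn1-2 is 1 line of the ecotype Gifu that is homozygous for a LORE1 retrotransposon in an exon of LjASN1, which encodes an asparagine synthetase, and both groups carry this insertion. S plants were inoculated with Mesorhizobium loti and watered without combined nitrogen but with 3 mM potassium chloride. NS plants received 5 mM ammonium nitrate and 3 mM potassium nitrate. The plants of a library, 10 from 2 pots, were pooled. WT shoots of the ecotype Gifu under S and NS conditions, with 3 libraries each, served for comparison.

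The nitrogen source is not all that separates the groups. According to the methods, S plants were harvested 37 days and NS plants 26 days after planting, at the same growth stage and after 8 h of light, whereas GEO's labels state 40 days and 4 h of light throughout. By the dates of the methods, plant age and nitrogen source cannot be told apart here. In whole shoots, fewer cells of a type and less RNA per cell cannot be told apart either.

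Nodulated legumes receive ammonium from the bacteroids in their nodules, and the nodules of Lotus export it to the shoot mostly as asparagine and glutamine. Plants fed with nitrate reduce part of it in the leaf, where nitrate reductase makes nitrite and plastid nitrite reductase makes ammonium, with electrons from ferredoxin and siroheme as a cofactor. Glutamine synthetase and glutamate synthase then fix ammonium into amino acids, and asparagine synthetase moves the amide of glutamine to aspartate, which yields asparagine, a nitrogen-rich transport and storage compound.

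The libraries held 39.2 to 47.2 M reads on genes in S and 39.6 to 66.8 M in NS shoots, and NS replicate 3 was the deepest. Across the genes tested, libraries correlated with r of 0.988 to 0.993 within S, 0.979 to 0.994 within NS and 0.956 to 0.971 between the groups. Between replicates, genes varied by 10.4% in S and 14.2% in NS shoots (median coefficient of variation), whereas counting error alone would give 3.5% and 3.1%. On the first principal component of the 12 shoot libraries (47.0% of the variance), the Ljasn1-2 libraries lay from 21.6 to 25.6 under S and from -30.0 to -24.2 under NS conditions. On the second component (22.8%), NS replicate 1 (24.4) stood apart from NS replicates 2 (-14.4) and 3 (-18.7), and S replicate 1 was at 11.3 against -10.1 and -0.8 for the other S libraries. Green shoot markers (22 genes for chlorophyll a-b binding proteins and the small chain of rubisco) summed to 57264 to 60020 FPKM in S and 39645 to 50362 FPKM in NS libraries, and 0 of the 17 of them that were tested passed the test. Nodule markers (27 genes for leghemoglobins and nodulins) summed to 242 to 258 FPKM in S and 198 to 256 FPKM in NS shoots, against 8412 to 15876 FPKM in nodulated Ljasn1-2 roots. Most of the shoot sum came from 1 early nodulin-like protein 2 (LotjaGi3g1v0046800), at 176 FPKM in S and 149 FPKM in NS shoots on average. The shoot sum is thus not a measure of nodule tissue. Leghemoglobin, which defines the nodule, was at 0.232 FPKM or below in every Ljasn1-2 shoot library.

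Changes were tested with limma on log2(FPKM + 1), a scale that understates the change of genes near 1 FPKM, and genes with an adjusted p under 0.05 are called higher or lower. A total of 1918 genes (11.9% of those tested) were called, 979 higher (6.05%) and 939 lower (5.81%) in S than in NS shoots. The median log2 fold change was 0.65 among genes called higher and -0.81 among genes called lower, and 0.04 over all genes tested. Changes of at least 2-fold were found for 172 genes called higher and 341 called lower, and changes of at least 4-fold for 21 and 81. In 1913 of the called genes the 3 S and the 3 NS libraries did not overlap, which was so for 4879 (30.2%) of all genes tested. Of the genes tested, 147 were below 1 FPKM in all S libraries and passed the filter only through NS. Their groups are apart by this selection, and 128 of them were called lower. Likewise, 81 were below 1 FPKM in all NS libraries, and 56 of them were called higher.

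The number of calls moved with single libraries. It was 2887 (1859 higher and 1028 lower) without NS replicate 1, 983 without NS replicate 2, 1112 without S replicate 1 and 930 without S replicate 3. Without replicate 1 of both groups, an alternative chosen after seeing the data, it was 2137 (1309 higher and 828 lower). When all libraries were scaled to the same FPKM total, 494 genes were called higher and 1490 lower, and the median of all genes tested moved to -0.12 (log2). Of the 124 named genes with a call, 42 lost it under at least 1 alternative and 0 changed direction. For genes whose call ended when a library was left out, the adjusted p without that library, or its range, is given where it is described.

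**Figure D1:**
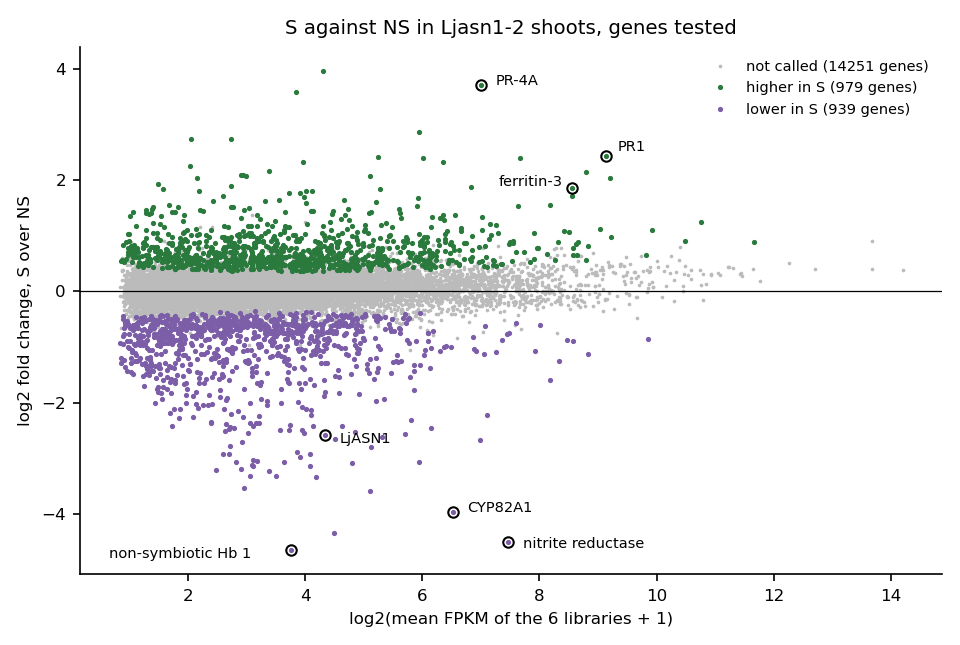
Log2 fold change of S over NS in Ljasn1-2 shoots (vertical axis) against log2 of the mean FPKM of the 6 libraries plus 1 (horizontal axis), 1 point per gene tested. The 979 genes higher in S are in green, the 939 lower in S in violet and the others in grey, and the circled genes are described in the text; changes reach 3.96 above the line of no change and -4.65 below it.

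Values of LjASN1 (LotjaGi1g1v0118200), the gene hit by the insertion, come first. In the Gifu assembly LjG1.1 it spans positions 18678532 to 18685507 of chromosome 1, on the plus strand. It was at 3.76, 5.89 and 4.65 FPKM in Ljasn1-2 S shoots and at 24.6, 37.1 and 39.2 FPKM in Ljasn1-2 NS shoots. Its level was thus lower in all 3 S libraries, by -2.58 on the log2 scale (SE 0.19, limma adjusted p = 5.65e-05). In WT shoots it was at 87.2 ± 10.2 FPKM under S and 430 ± 42.2 FPKM under NS conditions (SD, n = 3 each), so that each Ljasn1-2 group lay below the WT group of the same condition without overlap. The S over NS log2 fold change in WT was -2.29, and the difference between the genotypes was -0.29 (interaction, limma adjusted p = 1.00). The table has 1 value per gene, and where along the interrupted gene the remaining 426 to 9441 reads per mutant library fall was not seen. By RT-PCR the paper found no LjASN1 mRNA in mutant shoots or nodulated roots and considers the line a knock-out. Whether those shoots came from S or NS plants is not stated. Without their positions, the reads counted here do not show that an intact transcript is made.

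A second asparagine synthetase gene moved in the same direction. LotjaGi6g1v0130800, described as asparagine synthetase 2, was at 0.600, 0.841 and 0.509 FPKM in S and 4.73, 3.39 and 3.66 FPKM in NS shoots (log2 fold change -1.57, limma adjusted p = 1.83e-04). Being below 1 FPKM in every S library, it passed the filter through the NS libraries alone, so its groups are apart by this selection. Asparagine synthetase 3 (LotjaGi6g1v0088100) was at 6.48 ± 1.07 FPKM in S and 6.06 ± 0.454 FPKM in NS shoots, with overlapping libraries and a log2 fold change of 0.07 ± 0.13 (standard error). The asparagine synthetase domain protein LotjaGi4g1v0087300 did not pass the test either (1.51 ± 0.231 against 1.07 ± 0.170 FPKM, limma adjusted p = 0.222), and 2 further genes of this description were at 0 in all 6 libraries. Of the 17 tested genes of asparagine and aspartate metabolism, 3 were called higher and 3 lower (median 0.07), or 35.3% against 11.9% over all genes tested. A probable L-asparaginase (LotjaGi1g1v0358100), of the enzyme family that releases the amide of asparagine, was called higher (3.37 ± 0.974 against 1.55 ± 0.236 FPKM, 0.76), though not without S replicate 3 or NS replicate 2 (limma adjusted p = 0.0608 and 0.0611). A bifunctional aspartokinase/homoserine dehydrogenase, which starts the aspartate-derived amino acids, was called higher by 0.73 (LotjaGi6g1v0041900), but not without S replicate 3 (limma adjusted p = 0.127), S replicate 1 (0.102) or NS replicate 3 (0.0784).

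Nitrate reduction gave the clearest difference among the nitrogen genes. Both genes of the pathway that were found by their description were called lower in S shoots, against 5.81% of all genes tested. Nitrate reductase (LotjaGi1g1v0152000), the first enzyme, was at 38.1, 34.0 and 28.0 FPKM in S and 206, 232 and 213 FPKM in NS shoots (log2 fold change -2.67, limma adjusted p = 6.79e-06). Nitrite reductase (LotjaGi4g1v0074400), the plastid enzyme after it, was at 13.9 ± 1.37 FPKM in S and 338 ± 32.7 FPKM in NS shoots (-4.51, limma adjusted p = 3.20e-07). Neither gene had overlapping groups, and the nitrite reductase level in NS shoots was 24.4 times that in S shoots. UPM1 (LotjaGi3g1v0125200), a methyltransferase on the way to siroheme, was at 5.47, 3.84 and 3.72 FPKM in S and 65.1, 62.5 and 60.2 FPKM in NS shoots (-3.59, limma adjusted p = 1.35e-06).

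UPM1 belongs to a list of 30 tested regulators and reductant enzymes known from Arabidopsis to respond to nitrate, of which 0 were called higher and 6 lower. This is a share of 20.0%, against 11.9% of all genes tested and 5.81% for lower calls. Plastid glucose-6-phosphate dehydrogenase 2 (LotjaGi1g1v0531700), which makes NADPH in the oxidative pentose phosphate pathway, was at 8.49, 9.07 and 9.20 FPKM in S and 29.5, 29.5 and 27.6 FPKM in NS shoots (-1.59, limma adjusted p = 2.15e-05). The other 4 called members were plastid 6-phosphogluconate dehydrogenase 3 (-0.75), the BTB and TAZ domain proteins 1 (-0.82) and 4 (-0.74), and LOB domain protein 38 (-0.62), a repressor of nitrate-responsive genes in Arabidopsis. The median over the whole list was -0.04, and 24 members did not pass the test.

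Non-symbiotic hemoglobin 1 (LotjaGi3g1v0504500), of a class of plant hemoglobins that scavenge nitric oxide, had the largest decrease of all genes tested. It was at 0.0109, 0.0676 and 0.0103 FPKM in S shoots, from 1, 8 and 1 reads, and at 29.2, 25.5 and 20.3 FPKM in NS shoots (log2 fold change -4.65, limma adjusted p = 3.20e-07). The S libraries thus held next to no reads of this gene, which passed the filter through the NS libraries alone, so that its groups are apart by this selection. Glutaredoxins, small thiol oxidoreductases some of which repress growth in response to nitrate in Arabidopsis, moved both ways, with 5 of 20 tested called higher and 3 lower (3 and 1 without NS replicate 2, 4 and 1 without NS replicate 3, 3 and 2 without S replicate 1 or 3). Of this list 40.0% were called, against 11.9% of all genes tested. Glutaredoxin-S2 (LotjaGi1g1v0562100) was at 1.03, 1.87 and 0.530 FPKM in S and 49.1, 39.5 and 36.4 FPKM in NS shoots (-4.35, limma adjusted p = 5.34e-06), and glutaredoxin-S6 (LotjaGi1g1v0768300) was lower by a log2 fold change of -2.12. In contrast, glutaredoxin-S10 (LotjaGi6g1v0306800; 19.4 ± 5.15 against 4.98 ± 1.43 FPKM) and glutaredoxin-S11 (LotjaGi5g1v0263000; 70.5 ± 13.0 against 24.8 ± 6.26 FPKM) were higher by 1.77 and 1.48.

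**Figure D2:**
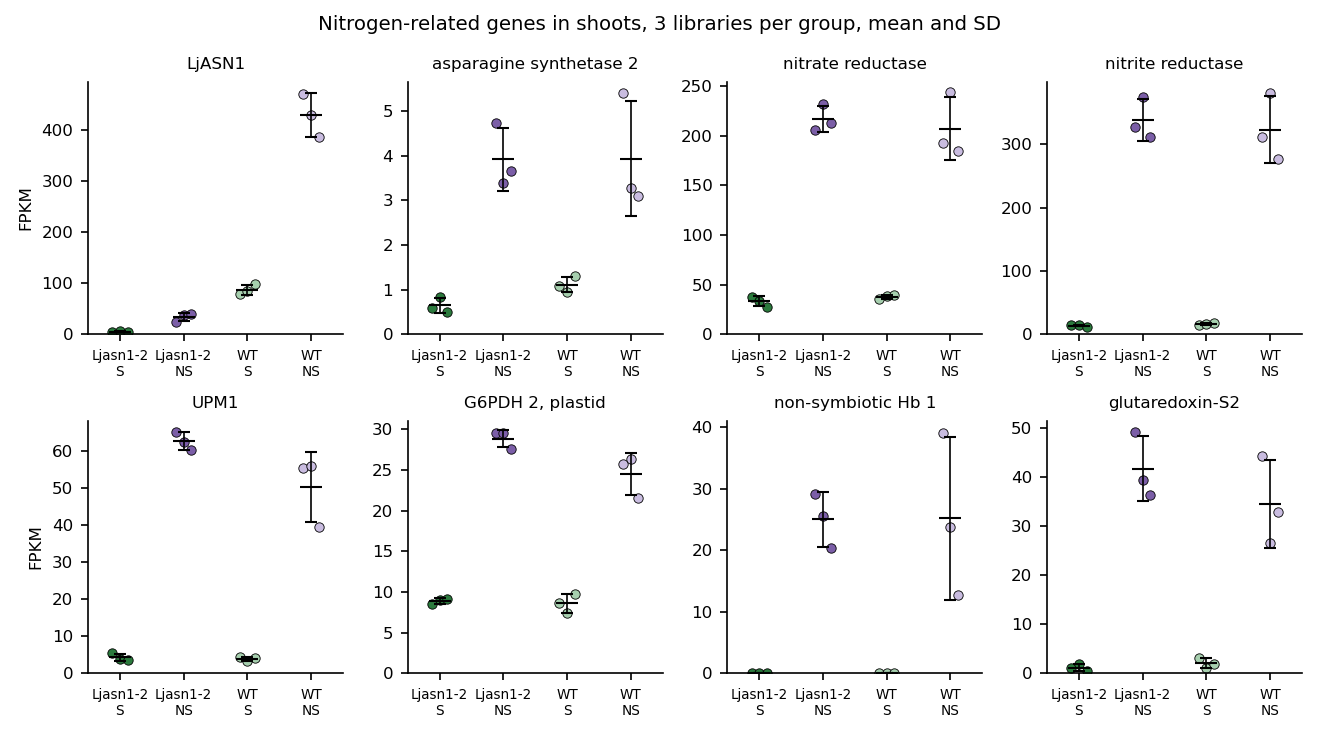
FPKM (vertical axes, linear, from 0) of 8 genes in each shoot library, grouped as Ljasn1-2 S, Ljasn1-2 NS, WT S and WT NS on the horizontal axes, with the mean and SD of 3 libraries. In each panel both S groups lie below the NS group of the same genotype, and for LjASN1 the Ljasn1-2 groups also lie below the WT groups.

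The transporters of nitrogen moved less. Of 40 tested transporters of the nitrate and peptide families, 9 were called higher and 3 lower (median 0.25), a split that turned to 2 higher and 4 lower when libraries were scaled to the same FPKM total. The counts were 5 higher and 1 lower without NS replicate 2 or S replicate 2, and 6 and 1 without S replicate 3. NPF5.7 (LotjaGi3g1v0222800) was at 11.7, 13.0 and 12.2 FPKM in S and 4.64, 4.40 and 4.16 FPKM in NS shoots (log2 fold change 1.30, limma adjusted p = 7.84e-05). A gene described as NPF6.3, the dual-affinity nitrate transporter of Arabidopsis, was higher as well (LotjaGi2g1v0425100; 9.33 ± 1.72 against 4.17 ± 0.658 FPKM, 0.99). NPF5.1 (LotjaGi6g1v0082900) was lower (11.1 ± 1.16 against 28.4 ± 2.37 FPKM, -1.28), and NPF4.6 (LotjaGi4g1v0246400) was lower by -0.89 but lost its call without S replicate 2, S replicate 3 or NS replicate 2 (limma adjusted p 0.0586 to 0.0706).

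Of the 3 tested ammonium transporters, 2 were called higher, against 6.05% of all genes tested. Ammonium transporter 1 member 2 (LotjaGi5g1v0205600) was at 24.7 ± 4.56 FPKM in S and 13.4 ± 1.29 FPKM in NS shoots, without overlap (log2 fold change 0.82, limma adjusted p = 0.00649). Member 1 (LotjaGi6g1v0009500) was at 65.1 ± 7.37 against 47.7 ± 1.98 FPKM (0.44, limma adjusted p = 0.0496), and its call was lost without any of the S libraries, NS replicate 2 or NS replicate 3 (0.0773 to 0.192). Among 9 tested genes of glutamine synthetase, glutamate synthase and glutamate dehydrogenase, NADH-dependent glutamate synthase (LotjaGi1g1v0224700), which returns glutamine nitrogen to glutamate, was called lower, at 11.9, 13.9 and 13.9 FPKM in S against 20.9, 29.8 and 24.4 FPKM in NS shoots (-0.86). The glutamine synthetase gene described as nodule isozyme (LotjaGi1g1v0095400) was called higher by 0.51, but not without S replicate 2, S replicate 3, NS replicate 2 or NS replicate 3 (limma adjusted p 0.0578 to 0.144). Of these 9 genes 22.2% were called, against 11.9% of all genes tested.

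Amino acid transporters were called 5 higher and 5 lower of 48 tested (20.8%, against 11.9% of all genes tested), but 2 and 4 without NS replicate 3, 1 and 5 without S replicate 2 and 1 and 4 without S replicate 3. Lysine histidine transporter-like 8 (LotjaGi2g1v0357700) was at 17.4 ± 4.94 FPKM in S against 52.6 ± 6.83 FPKM in NS shoots (log2 fold change -1.57), and the vacuolar-type transporter AVT1I (LotjaGi1g1v0503300) was lower at 2.39 ± 0.326 against 6.45 ± 2.16 FPKM. Cationic amino acid transporter 5 (LotjaGi6g1v0244700) was higher at 37.9 against 19.5 FPKM on average (0.93), and AVT1H (LotjaGi4g1v0063600) was higher by 0.70, though not without NS replicate 2 (limma adjusted p = 0.0725). Of 10 genes of purine breakdown and ureides, allantoate deiminase 2 (LotjaGi6g1v0244500), which frees ammonium from allantoate, was the 1 called, at 10.1 ± 0.768 FPKM in S and 4.62 ± 0.773 FPKM in NS shoots (1.00, limma adjusted p = 0.00123).

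**Figure D3:**
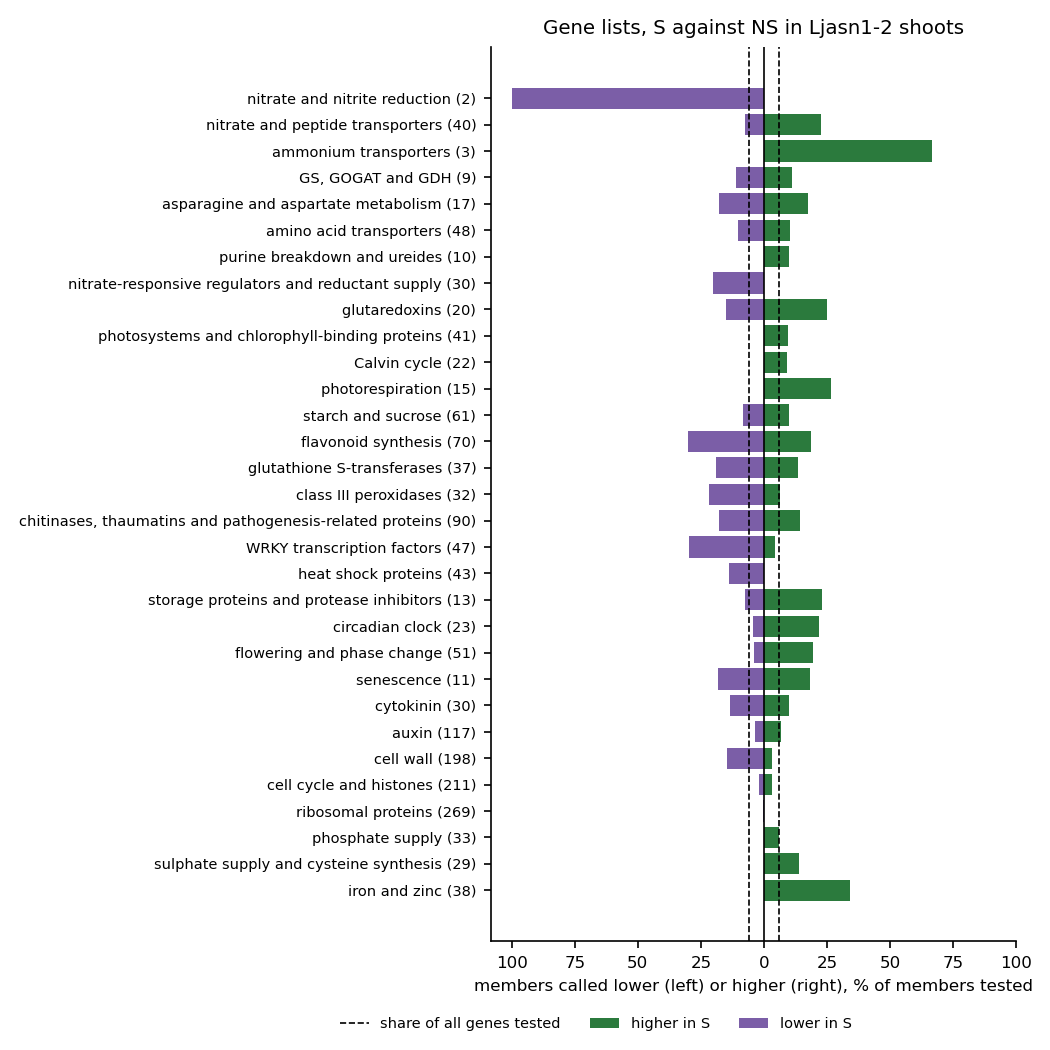
Share of the tested members of 31 gene lists that were called lower (violet, to the left) or higher (green, to the right) in S than in NS shoots of Ljasn1-2, in percent, with the number of members tested in brackets. The dashed lines mark the shares over all genes tested, 5.81% lower and 6.05% higher; iron and zinc genes extend to the right only, nitrate and nitrite reduction to the left only, and flavonoid synthesis to both sides.

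The largest increases included extracellular defence proteins. PR-4A (LotjaGi1g1v0782200), a chitin-binding pathogenesis-related protein, was at 287, 257 and 168 FPKM in S and 15.3, 16.7 and 18.2 FPKM in NS shoots (log2 fold change 3.71, limma adjusted p = 6.23e-06). PR1 (LotjaGi6g1v0345200), a marker of salicylic acid responses, was at 1310, 956 and 572 FPKM in S and 98.8, 191 and 240 FPKM in NS shoots (2.43, limma adjusted p = 0.00245). An acidic endochitinase (LotjaGi5g1v0294000) was at 117, 130 and 76.1 FPKM in S and 15.6, 18.3 and 24.5 FPKM in NS shoots (2.40). All 3 genes were lowest, within S, in replicate 3, and still lay above every NS library.

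The whole list of chitinases, thaumatins and pathogenesis-related proteins did not move one way, with 13 of 90 tested called higher and 16 lower (median 0.07), or 8 and 10 without S replicate 3. Together 32.2% of the 90 were called, against 11.9% of all genes tested. Of its members, a thaumatin-like protein (LotjaGi4g1v0417500; 714 against 168 FPKM on average, 2.15) and thaumatin-like protein 1a (LotjaGi1g1v0685100; 579 against 174 FPKM, 1.71) were also higher. Members of the PR-10 class, intracellular ligand-binding proteins, were on the other side, with 5 of 8 tested called lower and 0 higher, a subset chosen after its values were seen. Class-10 protein 1 (LotjaGi6g1v0254900) was at 1.39 ± 0.324 FPKM in S and 5.52 ± 0.873 FPKM in NS shoots (-1.45), and STH-2 (LotjaGi6g1v0253800) was at 0.609 ± 0.466 against 3.16 ± 1.09 FPKM (-1.38). The abundant osmotin-like protein OSM34 (LotjaGi2g1v0432500; 248 ± 56.2 against 463 ± 137 FPKM, -0.88) lost its call without any 1 of the S libraries or NS replicate 3 (limma adjusted p 0.0546 to 0.197).

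WRKY transcription factors, many of which act in defence and senescence, were called lower for 14 and higher for 2 of 47 tested (median -0.18), or 34.0% against 11.9% over all genes tested. WRKY40 (LotjaGi3g1v0349800), a repressor of defence genes in Arabidopsis, was at 3.97, 3.33 and 3.57 FPKM in S and 26.6, 28.0 and 23.7 FPKM in NS shoots (log2 fold change -2.55, limma adjusted p = 3.02e-06), and WRKY69 (LotjaGi3g1v0239000) was lower by -1.29. WRKY70 (LotjaGi1g1v0457600), which acts in salicylic acid signalling in Arabidopsis, was at 119, 97.5 and 76.4 FPKM in S and 34.3, 42.0 and 53.6 FPKM in NS shoots (1.15, limma adjusted p = 0.00508), without overlap. WRKY3 (LotjaGi1g1v0694700) was higher by 0.69, though not when libraries were scaled to the same FPKM total (limma adjusted p = 0.0607). The WRKY calls were 2 higher and 7 lower without S replicate 3, and 2 and 8 without S replicate 1.

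Class III peroxidases, which use hydrogen peroxide in the cell wall, were called 2 higher and 7 lower of 32 tested (median -0.14), or 28.1% against 11.9% over all genes tested. Peroxidase 4 (LotjaGi1g1v0108800) was at 19.5, 17.6 and 15.6 FPKM in S and 106, 95.1 and 76.1 FPKM in NS shoots (log2 fold change -2.32, limma adjusted p = 2.15e-05), and cationic peroxidase 2 (LotjaGi6g1v0353500) was lower by -1.68. Peroxidase 15 (LotjaGi6g1v0273700) was higher at 234 ± 10.7 against 127 ± 14.6 FPKM (0.88), and peroxidase 12 (LotjaGi5g1v0288600) was higher by 0.48, but not without S replicate 2, S replicate 3, NS replicate 2 or NS replicate 3 (limma adjusted p 0.0628 to 0.13). Glutathione S-transferases, which detoxify by conjugation, were called 5 higher and 7 lower of 37 tested, or 32.4% (2 and 5, 3 and 4, and 2 and 4 without S replicate 1, 2 and 3). GSTF11 (LotjaGi6g1v0052500) was at 28.4, 25.8 and 21.1 FPKM in S and 5.35, 3.97 and 3.40 FPKM in NS shoots (2.32, limma adjusted p = 3.50e-05), and GSTF9 (LotjaGi1g1v0045500) was higher by 1.11 (without S replicate 3, limma adjusted p = 0.0506). The parA-type transferase LotjaGi6g1v0043900 (0.677 ± 0.385 against 7.85 ± 3.86 FPKM, -2.34) and LotjaGi5g1v0258400 (0.889 ± 0.311 against 4.69 ± 2.39 FPKM, -1.53) were lower.

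Flavonoid synthesis held the highest share of calls among the lists with more than 20 members tested, with 13 higher and 21 lower of 70 (48.6%, against 11.9% of all genes tested). The calls split by step, in subsets formed after the values were seen. Of 13 tested chalcone synthases, which form the first flavonoid skeleton, 9 were called lower and 1 higher. All 5 tested 6'-deoxychalcone synthases, which lead to the 5-deoxyisoflavonoids of legumes, and 3 of 6 tested phenylalanine ammonia-lyases, the entry enzyme, were called lower. Chalcone synthase 2 (LotjaGi1g1v0470800) was at 2.73, 2.22 and 1.74 FPKM in S and 40.2, 35.5 and 21.5 FPKM in NS shoots (log2 fold change -3.34, limma adjusted p = 2.15e-05), and a chalcone synthase 4 (LotjaGi2g1v0449400) was at 0.986 ± 0.157 against 18.0 ± 5.09 FPKM (-3.22). The exception, LotjaGi1g1v0635000, described as chalcone synthase 3, was the most abundant of them at 464 FPKM in S against 217 FPKM in NS shoots (1.08, limma adjusted p = 0.0376). Chalcone synthase genes are close copies, and how reads shared between copies were assigned is not known, so single members are uncertain.

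Among the genes called higher were several of later steps. Flavonoid 3'-monooxygenase CYP75B137 (LotjaGi4g1v0216400), which hydroxylates the B ring, was at 24.1 FPKM in S and 8.17 FPKM in NS shoots on average, without overlap (log2 fold change 1.44, limma adjusted p = 3.99e-04). Isoflavone-7-O-methyltransferase 9 (LotjaGi5g1v0196200) was at 2.88 ± 0.350 against 0.385 ± 0.0204 FPKM (1.48), and flavonol synthase/flavanone 3-hydroxylase (LotjaGi1g1v0327900) was at 10.5 against 4.75 FPKM on average (1.00). Pterocarpan synthase 1 (LotjaGi1g1v0733200), which closes the pterocarpan ring of isoflavonoid phytoalexins, was at 5.65, 9.62 and 3.57 FPKM in S and at 0, 0 and 0.114 FPKM in NS shoots (2.73, limma adjusted p = 2.19e-04). Both this gene and isoflavone-7-O-methyltransferase 9 passed the filter through the S libraries alone, so their groups are apart by selection.

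Genes of iron and zinc handling were called in 1 direction, with 13 of 38 tested higher and 0 lower (median 0.33), and 0 were called lower under every alternative, where 8 (without S replicate 1) to 20 (without NS replicate 1) were called higher. Of the 38, 34.2% were called, against 11.9% of all genes tested and 6.05% for higher calls. Ferritin-3 (LotjaGi3g1v0197600), a plastid iron store, was at 550, 684 and 529 FPKM in S and 195, 122 and 177 FPKM in NS shoots (log2 fold change 1.85, limma adjusted p = 4.69e-04). Nicotianamine synthase (LotjaGi6g1v0258100), which makes a chelator of iron and zinc for transport, was at 6.58, 7.36 and 14.9 FPKM in S and 2.26, 1.56 and 1.38 FPKM in NS shoots (1.89, limma adjusted p = 0.00154). Both genes were apart between the groups, with S replicate 3 far above the other S libraries for nicotianamine synthase. The other calls included zinc transporter 1 (LotjaGi3g1v0133100; 26.3 against 6.47 FPKM on average, 1.81), ferritin-2 (0.65), the chloroplast ferric reductase FRO7 (0.74) and 3 metal-nicotianamine transporters of the YSL family (0.47 to 0.65).

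Of 29 tested genes of sulphate supply and cysteine synthesis, 4 were called higher and 0 lower, a count of 1 without S replicate 1 or NS replicate 2, 2 without S replicate 3 or NS replicate 3, and 7 without NS replicate 1. Their share of calls was 13.8%, against 11.9% of all genes tested and 6.05% for higher calls. RESPONSE TO LOW SULFUR 2 (LotjaGi1g1v0302700) was at 135 ± 23.8 FPKM in S against 65.0 ± 24.1 FPKM in NS shoots (log2 fold change 1.09), with its call lost without S replicate 1, S replicate 3 or NS replicate 2 (limma adjusted p 0.0626 to 0.0739). Sulfate transporter 3.3 (LotjaGi4g1v0081000) was at 33.0 ± 1.29 against 21.5 ± 1.18 FPKM (0.60, and limma adjusted p = 0.0624 at the same FPKM total). Of 33 tested genes of phosphate supply, 2 were called higher, a share near that of all genes. They were a gene described as the probable inactive purple acid phosphatase 27 (LotjaGi4g1v0222000, 0.50) and SPX domain protein 4 (LotjaGi2g1v0261200, 0.45), a phosphate sensor. The first call was lost without S replicate 1 or NS replicate 2 (limma adjusted p = 0.0572 and 0.0531), and the second without any 1 of 5 libraries, NS replicate 1 excepted (0.0848 to 0.17).

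Photosystem and chlorophyll-binding genes (9.76%) and Calvin cycle genes (9.09%) were called at shares near the 11.9% of all genes tested. The share of all genes for higher calls was 6.05%. Of 41 tested genes of the photosystems and chlorophyll-binding proteins 4 were called higher and 0 lower (median 0.34), but 0 were called without S replicate 3, 1 without S replicate 1 or NS replicate 2, 2 without S replicate 2 or NS replicate 3, and 19 without NS replicate 1. The PsbS protein (LotjaGi1g1v0260800), which dissipates excess light, was at 2057, 1645 and 1924 FPKM in S and 1087, 1040 and 869 FPKM in NS shoots (log2 fold change 0.91, limma adjusted p = 0.0131). Its groups did not overlap, and its call was lost without S replicate 1, S replicate 3 or NS replicate 2 (limma adjusted p 0.057 to 0.088). The repair protein PSB27 (LotjaGi3g1v0442300, 0.57) and, of 22 tested Calvin cycle genes with 2 called higher, rubisco accumulation factor 1 (LotjaGi5g1v0206900, 0.51) lost theirs without any 1 of 5 libraries (limma adjusted p 0.119 to 0.202 and 0.0592 to 0.154). Rubisco activase (LotjaGi3g1v0002100, 0.47) lost its call without any 1 of 4 libraries (0.0975 to 0.16). Among 15 tested photorespiration genes, 4 were called higher and 0 lower (26.7%), a count that was 1 without S replicate 1 or 3 and 2 without NS replicate 2. Serine-glyoxylate aminotransferase (LotjaGi6g1v0183300), the peroxisomal enzyme of the cycle, was at 581 ± 55.8 against 328 ± 33.3 FPKM (0.82, and limma adjusted p = 0.0526 and 0.0608 without S replicate 1 and 3). Glycine dehydrogenase (LotjaGi5g1v0044000) of the mitochondria was at 412 ± 49.7 against 224 ± 30.9 FPKM (0.88, and limma adjusted p = 0.0558 without S replicate 3).

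Sugar transport and starch genes split, with 6 called higher and 5 lower of 61 tested (10 and 7 without NS replicate 1, 4 and 3 without S replicate 1, 3 and 3 without S replicate 3). Together 18.0% of the 61 were called, against 11.9% of all genes tested. A pair of SWEET14 sugar exporters was higher, of which LotjaGi4g1v0419400 was at 190, 191 and 196 FPKM in S and 99.2, 91.6 and 92.9 FPKM in NS shoots (log2 fold change 1.02, limma adjusted p = 6.38e-04) and LotjaGi1g1v0335200 was higher by 1.19. SWEET10 (LotjaGi1g1v0335600) was at 0.879, 0.564 and 0.730 FPKM in S and 14.4, 19.4 and 9.99 FPKM in NS shoots (-3.14, limma adjusted p = 2.15e-05). In this comparison SWEET10 passed the filter through the NS libraries alone, so its groups are apart by selection. Granule-bound starch synthase 2 (LotjaGi1g1v0504200), an enzyme of starch synthesis, was at 1.47 ± 0.587 against 21.4 ± 12.2 FPKM (-3.06).

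The most abundant genes called higher were headed by thiamine thiazole synthase 2 (LotjaGi5g1v0317600), a plastid enzyme of vitamin B1 synthesis, at 4334, 4223 and 4007 FPKM in S and 2475, 2339 and 2021 FPKM in NS shoots (log2 fold change 0.88, limma adjusted p = 0.0209). Ferredoxin-1 (LotjaGi4g1v0387900), the electron carrier after photosystem I, was at 1456, 1143 and 1327 FPKM in S against 833, 546 and 491 FPKM in NS shoots, and cysteine proteinase 15A (LotjaGi1g1v0424400) was at 1098 ± 28.9 against 702 ± 97.1 FPKM (0.65). The gene LotjaGi3g1v0062400, with no description, was at 2403 ± 354 against 1048 ± 378 FPKM (1.24). All 4 calls were lost without S replicate 1, S replicate 3 or NS replicate 2 (limma adjusted p 0.0622 to 0.167). Thiamine thiazole synthase 2 was also not called without S replicate 2 (limma adjusted p = 0.0854) or NS replicate 3 (0.0511), and cysteine proteinase 15A without S replicate 2 (0.119) or NS replicate 3 (0.0998). A vacuolar-processing enzyme (LotjaGi5g1v0040100), which matures vacuolar proteins, was at 351, 345 and 325 FPKM in S and 72.0, 61.9 and 58.9 FPKM in NS shoots (2.39, limma adjusted p = 8.16e-06), and kept its call in all alternatives run.

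Among the abundant genes called lower, the 36.4 kDa proline-rich cell wall protein (LotjaGi4g1v0275500) was at 652 ± 27.3 FPKM in S against 1186 ± 151 FPKM in NS shoots (log2 fold change -0.85), with its call lost without S replicate 1, S replicate 3 or NS replicate 2 (limma adjusted p 0.0567 to 0.0855). Enolase (LotjaGi1g1v0680200), of glycolysis, was at 266 ± 36.7 against 497 ± 84.3 FPKM (-0.89, and limma adjusted p = 0.0516 and 0.0703 without S replicate 2 and 3). The genes LotjaGi6g1v0286800_LC (285 ± 13.4 against 627 ± 21.5 FPKM, -1.13) and LotjaGi5g1v0225100 (187 ± 19.1 against 456 ± 97.1 FPKM, -1.26) have no description, and the call of LotjaGi5g1v0225100 was lost with the 12 shoot libraries in one fit (limma adjusted p = 0.0529).

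The other largest increases were in genes of diverse function. A 2-isopropylmalate synthase (LotjaGi1g1v0613100), the first enzyme of leucine synthesis, was at 65.5, 46.3 and 77.1 FPKM in S and 13.4, 11.2 and 8.38 FPKM in NS shoots (log2 fold change 2.41, limma adjusted p = 1.41e-04). A lipid-transfer protein (LotjaGi6g1v0042700) was at 107 ± 27.9 against 13.9 ± 4.84 FPKM (2.87), and the genes LotjaGi2g1v0134100_LC (36.0 ± 20.2 against 1.35 ± 1.09 FPKM, 3.96) and LotjaGi5g1v0213400 (25.5 ± 8.10 against 1.34 ± 1.26 FPKM, 3.58) have no description. TAR1 (LotjaGi2g1v0037800) was at 7.63, 19.6 and 4.91 FPKM in S and 1.84, 0.124 and 0.101 FPKM in NS shoots (2.74, limma adjusted p = 0.00488). The other largest decreases included GIP2 (LotjaGi6g1v0297900; 0.495 ± 0.155 against 14.2 ± 4.20 FPKM, -3.32), described as an aspartic proteinase, and a gene described as the disease resistance protein At4g27190 (LotjaGi1g1v0654700; 0.230 ± 0.101 against 13.3 ± 2.38 FPKM, -3.53). Both of these passed the filter through the NS libraries alone.

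Regulators of flowering and phase change were called higher for 10 and lower for 2 of 51 tested (median 0.17), or 23.5% against 11.9% over all genes tested. Leaving out 1 library other than NS replicate 1 gave 5 to 7 higher and 0 or 1 lower. FLOWERING LOCUS T (LotjaGi2g1v0003200), which encodes the mobile signal that induces flowering, was at 37.6, 21.8 and 32.6 FPKM in S and 15.7, 7.87 and 9.99 FPKM in NS shoots (log2 fold change 1.39, limma adjusted p = 0.00623). CONSTANS-LIKE 16 (LotjaGi5g1v0340200) was at 14.0, 20.7 and 17.4 FPKM in S and 6.29, 4.75 and 6.48 FPKM in NS shoots (1.42, limma adjusted p = 5.77e-04), and the floral regulator SOC1 (LotjaGi1g1v0466600) was higher by 0.61. CONSTANS-LIKE 14 (LotjaGi1g1v0630400, -0.98) and the MADS-box gene AGL29 (LotjaGi3g1v0038000, -0.51) were called lower, and lost the call without any 1 of 3 libraries (limma adjusted p 0.0618 to 0.088) and of 5 libraries (0.0646 to 0.107). Circadian clock genes were called higher for 5 and lower for 1 of 23 tested (26.1%). The evening-expressed regulator ELF4-LIKE 4 (LotjaGi4g1v0327000) was at 16.2 ± 0.481 FPKM in S and 9.04 ± 0.308 FPKM in NS shoots (0.77, limma adjusted p = 0.00112), its copy LotjaGi6g1v0074500_LC was higher by 1.11, and APRR5 (LotjaGi1g1v0796900) was lower at 42.0, 34.4 and 34.5 FPKM in S against 66.4, 78.5 and 60.6 FPKM in NS shoots (-0.87).

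Senescence genes were called 2 higher and 2 lower of 11 tested (36.4%, against 11.9% of all genes tested), and 0 higher and 2 lower without S replicate 1 or 3. SAG12 (LotjaGi6g1v0324100), a protease that marks old leaves, was at 157 ± 19.9 FPKM in S and 91.5 ± 21.6 FPKM in NS shoots, without overlap (log2 fold change 0.80, limma adjusted p = 0.0248, but 0.0583 to 0.109 without any 1 of the S libraries). Pheophytinase (LotjaGi4g1v0119500), of chlorophyll breakdown, was higher by 0.61 (limma adjusted p 0.0512 to 0.0768 without S replicate 1, S replicate 3, NS replicate 2 or NS replicate 3). STAY-GREEN (LotjaGi2g1v0429900), which starts chlorophyll breakdown, was lower at 6.34 ± 0.987 against 23.5 ± 11.3 FPKM (-1.64), and the senescence-associated carboxylesterase LotjaGi2g1v0250800 was lower by -1.03.

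Storage proteins and protease inhibitors were called 3 higher and 1 lower of 13 tested (6 and 2 without NS replicate 1, 1 and 1 without NS replicate 2, 1 and 0 without S replicate 1). Of the 13, 30.8% were called, against 11.9% of all genes tested. The Kunitz trypsin inhibitor 106 (LotjaGi3g1v0038800) was at 133 ± 18.2 FPKM in S against 73.6 ± 16.9 FPKM in NS shoots (log2 fold change 0.86, and limma adjusted p 0.0575 to 0.0648 without S replicate 1, S replicate 2 or NS replicate 2), and jacalin-related lectin 3 (LotjaGi1g1v0119300) was higher by 0.95. The lower member, an anti-H(O) lectin (LotjaGi2g1v0157900, -1.47), is 1 of 2 called genes for which another place of the decimal point was also possible, and it lost its call without S replicate 1 (limma adjusted p = 0.0562).

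Cell wall genes were called 6 higher and 29 lower of 198 tested (median -0.09), or 17.7% against 11.9% over all genes tested, with 14.6% against 5.81% for lower calls. They were called 3 higher and 14 lower without S replicate 3, and 4 higher and 16 to 18 lower without S replicate 1, S replicate 2 or NS replicate 2. A xyloglucan endotransglucosylase (LotjaGi4g1v0165100), which remodels wall glucans, was at 9.74, 6.39 and 6.79 FPKM in S and 34.6, 29.8 and 27.3 FPKM in NS shoots (log2 fold change -1.88, limma adjusted p = 1.22e-04), and its relative LotjaGi4g1v0298800 was lower by -2.21. The family member LotjaGi2g1v0005800 was higher at 22.2 ± 0.996 against 12.6 ± 0.386 FPKM (0.77), as was cellulose synthase-like B4 (LotjaGi3g1v0186200, 0.97). The cell cycle and histones list had 7 called higher and 4 lower of 211, below the share over all genes, but 34 and 6 without NS replicate 1. It had 1 and 2 without S replicate 3, 4 and 3 without S replicate 1, 2 and 1 without NS replicate 2, and 5 and 2 without NS replicate 3. The list included cyclin-D1-1 (LotjaGi4g1v0161600; 9.53 ± 0.380 against 5.32 ± 0.758 FPKM, 0.74), which promotes entry into the cycle, histone H1 (LotjaGi2g1v0382800, 0.85), kinesin KIN-12B (LotjaGi4g1v0368400; 0.485 ± 0.155 against 5.30 ± 2.46 FPKM) and cyclin-U2-2 (LotjaGi1g1v0601100, -0.87). Of these, histone H1 was not called without any 1 of 5 libraries (limma adjusted p 0.0885 to 0.14) and cyclin-U2-2 without S replicate 2, S replicate 3 or NS replicate 2 (0.051 to 0.0923). KIN-12B passed the filter through the NS libraries alone.

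Among ribosomal proteins 0 of 269 were called higher and 1 lower, the 60S protein L3 (LotjaGi4g1v0029300, log2 fold change -0.60, and limma adjusted p = 0.0526 and 0.0765 without NS replicate 2 and S replicate 3), and the abundant 40S protein S29 (LotjaGi5g1v0323600_LC) was at 1923 ± 202 against 1747 ± 224 FPKM. This count depended on the scaling, since 51 were called lower at the same FPKM total and 43 after quantile normalization, and without NS replicate 1, 9 were called higher and 1 lower. Heat shock proteins were called 0 higher and 6 lower of 43 tested, and 0 higher and 2 lower without NS replicate 2 or 3 lower without S replicate 3. Their share of calls was 14.0%, against 11.9% of all genes tested and 5.81% for lower calls. The 15.4 kDa class V protein (LotjaGi6g1v0295600) was at 10.2 ± 0.873 against 23.9 ± 5.85 FPKM (-1.13), and the 17.9 kDa class II protein (LotjaGi5g1v0047200) was lower by -0.94.

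Auxin genes were called 8 higher and 4 lower of 117 tested, a share of 10.3% that was near the 11.9% of all genes tested. The SAUR genes SAUR77 (LotjaGi3g1v0409900; 11.9 against 46.8 FPKM on average, log2 fold change -1.85) and SAUR50 (LotjaGi4g1v0127100; 0.544 ± 0.0528 against 3.95 ± 1.48 FPKM, -1.63), small auxin-induced growth regulators, were lower. SAUR50 passed the filter through the NS libraries alone. The auxin-conjugating enzyme GH3.10 (LotjaGi3g1v0442000) and the SAUR X10A (LotjaGi3g1v0121100) were higher by 0.87 and 0.91. The call of GH3.10 was lost at the same FPKM total (limma adjusted p = 0.058), and that of X10A without the filter on low values (0.053) and with the 12 shoot libraries in one fit (0.0532). The auxin calls were 24 higher and 3 lower without NS replicate 1, 4 and 2 without NS replicate 2, 4 and 3 without S replicate 1, and 2 and 4 without S replicate 3. Cytokinin genes were called 3 higher and 4 lower of 30 (23.3%), and 1 higher and 1 or 2 lower without any 1 library other than NS replicate 1. Cytokinin dehydrogenase 7 (LotjaGi5g1v0046100), which degrades cytokinin, was at 17.0, 19.4 and 16.5 FPKM in S and 6.31, 10.2 and 8.33 FPKM in NS shoots (1.02, limma adjusted p = 0.00287). The cytokinin-induced response regulators ARR5 (LotjaGi4g1v0236600; 9.32 ± 2.12 against 15.9 ± 3.28 FPKM, -0.72) and ARR9 (LotjaGi3g1v0110700, -0.79) were called lower. The cytokinin-activating enzyme LOG1 (LotjaGi3g1v0164600) was called higher by 0.67. All 3 of these calls were lost without S replicate 3 (limma adjusted p = 0.106, 0.0761 and 0.0862), and also without S replicate 2 and NS replicate 2 for ARR5, S replicate 1 for ARR9, and every library but NS replicate 1 for LOG1.

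The list of nodule markers found by their description is smaller than the set of 27 genes summed above, of which 8 were tested and 0 called. Of its 14 genes, 2 were tested and 0 called, and early nodulin-93 (LotjaGi4g1v0310400_LC) was at 16.7 ± 1.66 FPKM in S against 14.5 ± 2.81 FPKM in NS shoots. Together the 32 lists held 1662 entries tested, of which 140 were called higher and 147 lower. Over all genes tested, 6.05% were called higher and 5.81% lower.

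The same comparison was made in WT shoots, to see which of these differences are shared. In WT, 996 of 16125 genes tested (6.18%) were called, 553 higher (3.43%) and 443 lower (2.75%) in S than in NS shoots. The WT libraries deviate together by replicate number, a pairing that these counts leave out. A fit with that number as a block called 3722, 2191 higher and 1531 lower. With the block in both genotypes, more genes were called in WT than in Ljasn1-2, the reverse of the order without it. The WT count was 347 without NS replicate 2, 405 without S replicate 2 and 317 without S replicate 3, against 2729 without replicate 1 of both groups. Of the 1918 genes called in Ljasn1-2, 1850 were tested in WT, and 1791 of these (96.8%) had the same sign there, as had 74.8% of all 15895 genes tested in both. Called in both genotypes in the same direction were 757 genes (387 higher and 370 lower), which is 39.5% of the Ljasn1-2 calls and 76.0% of the WT calls, and 3 were called in opposite directions. With the replicate block in the WT fit (23.1% of genes called, 13.6% higher and 9.49% lower) the shared calls were 1457 (777 higher and 680 lower), or 76.0% of the Ljasn1-2 calls and 39.1% of the WT calls, and 10 genes were called in opposite directions. The fold change was larger in size in Ljasn1-2 for 76.6% of its called genes, which is partly set by their having been called there. Across the 15895 genes the log2 fold changes of the genotypes correlated with Pearson's r of 0.82, as a description over genes, which are not independent replicates.

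Named genes illustrate both cases. Nitrite reductase was at 16.2 FPKM in WT S and 323 FPKM in WT NS shoots on average (log2 fold change -4.23), and non-symbiotic hemoglobin 1 at 0.0180 and 25.2 FPKM (-4.55), close to the Ljasn1-2 values. Ferritin-3 (1.76 in WT), FLOWERING LOCUS T (1.39) and glutaredoxin-S10 (2.02) were likewise called higher in WT. PR-4A was at 196 FPKM in WT S and 57.3 FPKM in WT NS shoots (1.91), and PR1 at 1013 and 669 FPKM (0.62). PR1 was not called in WT without the block, and was called with it (limma adjusted p = 0.00337). For PR-4A and PR1 the difference between genotypes did not pass the test (interaction 1.81 for each, limma adjusted p = 0.357 and 0.653). With a common replicate block over both genotypes that of PR-4A passed (limma adjusted p = 0.0408) and that of PR1 did not (0.241). In WT, 38 iron and zinc genes, 45 WRKY factors, 69 flavonoid genes and 42 heat shock proteins were tested. Iron and zinc genes were called 11 higher and 0 lower, WRKY factors 2 and 8, flavonoid genes 11 and 17, and heat shock proteins 2 and 0. The share over all WT genes was 6.18%. With the block in WT these counts were 24 and 1, 5 and 14, 21 and 23, and 8 and 3, in the same order. That fit called 23.1% of all WT genes, 13.6% higher and 9.49% lower.

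**Figure D4:**
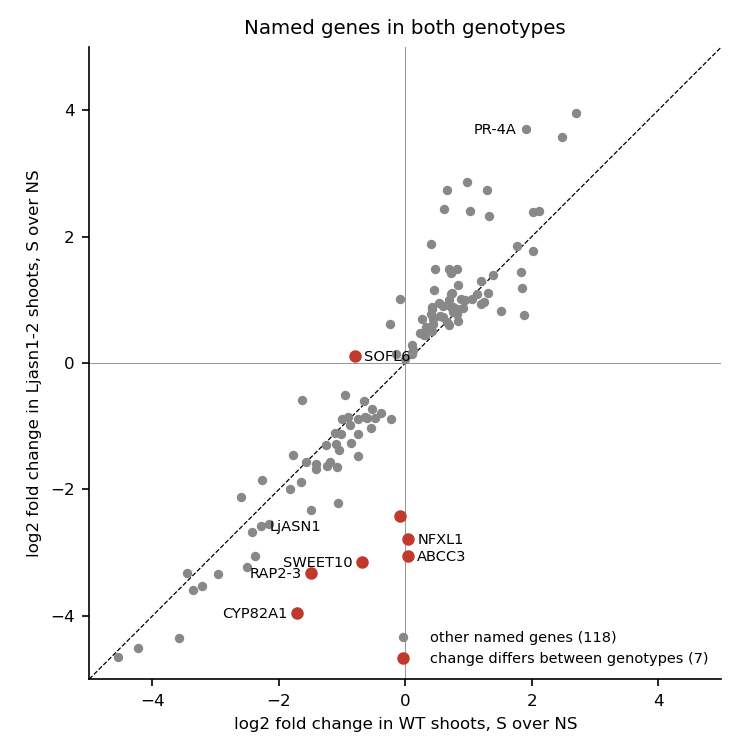
Log2 fold change of S over NS in Ljasn1-2 shoots (vertical axis) against that in WT shoots (horizontal axis) for the 125 named genes tested in both genotypes, with the line of equal change dashed. The 7 genes in red, whose change differed between the genotypes, lie away from the line, 6 of them below it and 1 above it, and the 118 others are in grey.

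Whether a change differed between the genotypes was tested as an interaction over the 12 shoot libraries. Of 16650 genes tested, 36 (0.216%) passed, 35 of them (0.210%) with a negative term, that is, lower in S relative to NS in Ljasn1-2 than in WT, and 1 (0.00601%) with a positive term. With a replicate block, 95 passed (13 positive and 82 negative), without Ljasn1-2 NS replicate 3 17 passed, and without Ljasn1-2 NS replicate 2 19. As a description noticed after the test, the 3 NS libraries of Ljasn1-2 lay above the 3 NS libraries of WT in all 35. In these 35 the S means of the genotypes, each plus 1 FPKM, were within 2-fold. A negative term then largely sets this order of the NS libraries, so it is not a separate result. How often the order holds over all genes tested was not counted. Of the 35, 21 were tested in WT and 14 were too low there to pass the filter, and in 14 the S means of both genotypes were below 1 FPKM, so their values in the other groups are in part set by how they were selected. In 34 of the 35 the Ljasn1-2 NS mean was the highest of the 4 groups, which the selection largely sets as well.

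Transporters and mitochondrial proteins were among the genes of smallest p. An ABC transporter described as C family member 3 (LotjaGi1g1v0018500), of a family that moves conjugates into the vacuole, was at 1.05, 1.02 and 0.727 FPKM in Ljasn1-2 S and 12.8, 14.9 and 17.7 FPKM in Ljasn1-2 NS shoots, and at 1.01 FPKM in WT S and 0.968 FPKM in WT NS shoots on average (interaction -3.09, limma adjusted p = 1.68e-05). A second gene of this description (LotjaGi1g1v0018700), close by on chromosome 1, was at 8.03, 5.69 and 6.64 FPKM in Ljasn1-2 S and 36.2, 37.7 and 48.3 FPKM in Ljasn1-2 NS shoots, against 6.47 ± 0.481 FPKM in WT S and 6.90 ± 0.640 FPKM in WT NS shoots (-2.34). In both genes 3 of the 4 groups were near one level and Ljasn1-2 NS stood above them. The NF-X1-type zinc finger protein NFXL1 (LotjaGi4g1v0465300), a stress regulator in Arabidopsis, was at 8.76, 7.43 and 7.03 FPKM in Ljasn1-2 S and 58.3, 50.4 and 70.6 FPKM in Ljasn1-2 NS shoots, against 8.18 FPKM in WT S and 7.93 FPKM in WT NS (-2.84, limma adjusted p = 1.12e-04).

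The external alternative NAD(P)H dehydrogenase NDB2 (LotjaGi6g1v0339200), which feeds electrons into the mitochondrial chain without pumping protons, was at 1.28 ± 0.0631 FPKM in Ljasn1-2 S and 8.95 ± 0.930 FPKM in Ljasn1-2 NS, against 0.833 ± 0.156 FPKM in WT S and 1.25 ± 0.244 FPKM in WT NS shoots (interaction -1.83, limma adjusted p = 3.16e-04). A gene described as the mitochondrial import subunit TIM14-1 (LotjaGi5g1v0075600) was at 0.572, 0.222 and 0.271 FPKM in Ljasn1-2 S and 14.0, 5.42 and 9.95 FPKM in Ljasn1-2 NS shoots (-3.23, limma adjusted p = 0.0017), but limma-voom on recovered reads did not call it (adjusted p = 0.119). Its means were 0.562 FPKM in WT S and 0.248 FPKM in WT NS shoots. It passed the filter through the Ljasn1-2 NS libraries alone, so the order of its groups is set by this selection.

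Of the genes with the largest decreases in Ljasn1-2, CYP82A1 and RAP2-3 differed between the genotypes. The cytochrome P450 CYP82A1 (LotjaGi2g1v0251800) was at 11.6, 9.08 and 9.58 FPKM in Ljasn1-2 S and 166, 156 and 191 FPKM in Ljasn1-2 NS shoots, against 8.46 ± 1.68 FPKM in WT S and 30.4 ± 7.21 FPKM in WT NS (log2 fold change -3.96 in Ljasn1-2 and -1.72 in WT, interaction -2.24, limma adjusted p = 0.00202). The ethylene response factor RAP2-3 (LotjaGi5g1v0248300), a regulator of low-oxygen responses in Arabidopsis, was at 1.08 ± 0.304 FPKM in Ljasn1-2 S and 19.7 ± 2.27 FPKM in Ljasn1-2 NS, against 1.60 ± 0.618 FPKM in WT S and 6.32 ± 2.03 FPKM in WT NS shoots (-1.83, limma adjusted p = 0.0154). Both genes were lower under S conditions in each genotype, and more so in Ljasn1-2. SWEET10 was at 0.868 FPKM in WT S and 2.10 FPKM in WT NS shoots on average, levels far below the 9.99 to 19.4 FPKM of Ljasn1-2 NS (-2.45, limma adjusted p = 0.0345), and the parA-type glutathione S-transferase at 0.161 and 0.485 FPKM (-1.99, limma adjusted p = 0.0486).

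**Figure D5:**
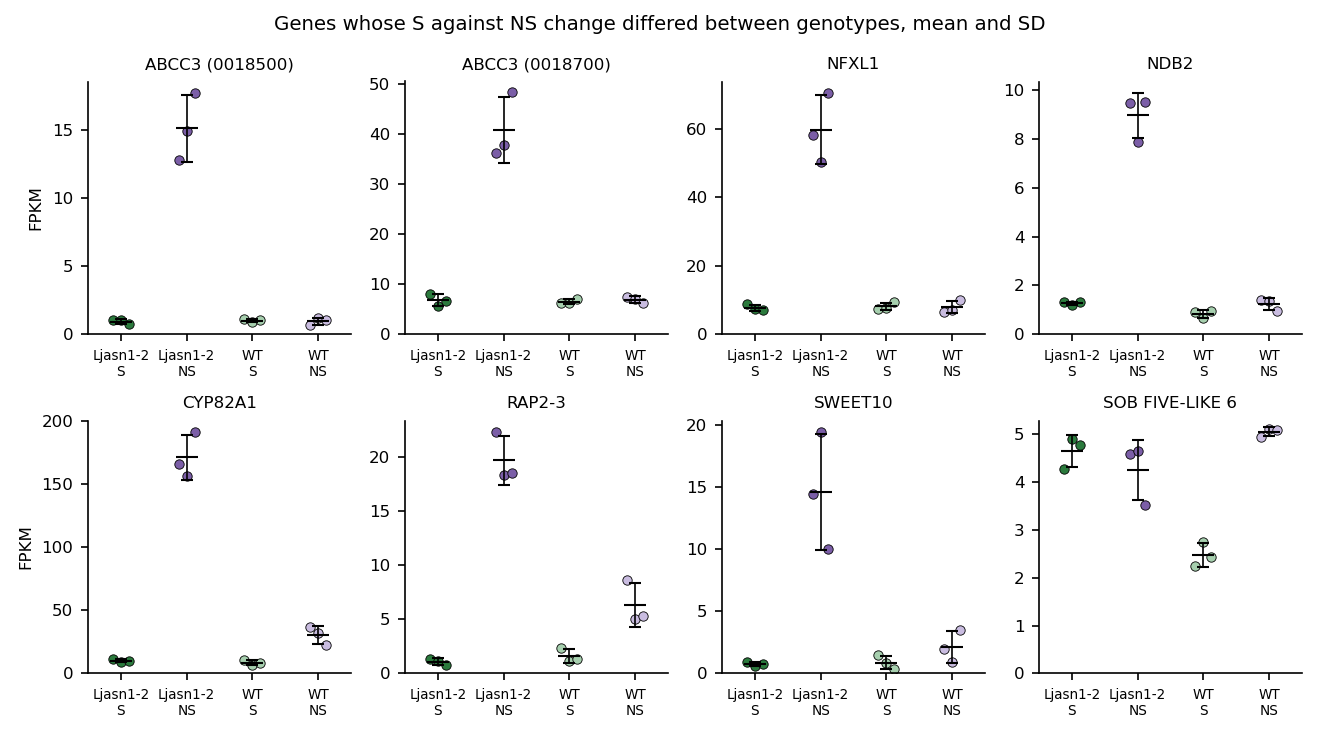
FPKM (vertical axes, linear, from 0) of 8 genes whose change from NS to S differed between the genotypes, in each library of Ljasn1-2 S, Ljasn1-2 NS, WT S and WT NS shoots (horizontal axes), with the mean and SD of 3 libraries. In 7 panels the Ljasn1-2 NS libraries lie above all other groups, and in the last, SOB FIVE-LIKE 6, the WT S libraries lie below all others.

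The 1 gene with a positive term was SOB FIVE-LIKE 6 (LotjaGi5g1v0034600), at 4.65 ± 0.337 FPKM in Ljasn1-2 S and 4.26 ± 0.628 FPKM in Ljasn1-2 NS shoots, which overlap, against 2.47 ± 0.246 FPKM in WT S and 5.06 ± 0.0931 FPKM in WT NS (interaction 0.91, limma adjusted p = 0.0304). It lost its call under 12 alternatives, 9 of them with libraries left out (limma adjusted p 0.0578 to 0.174). The next genes with positive terms did not pass the test, among them CIA2 (LotjaGi1g1v0115200), a regulator of chloroplast protein import, with an interaction of 1.11 (limma adjusted p = 0.0798), and the histone demethylase JMJ30 (LotjaGi3g1v0496400) with 1.02 (limma adjusted p = 0.135). With a replicate block both passed (limma adjusted p = 0.0133 and 0.0458). The G protein XLG1 (LotjaGi3g1v0502900; 0.86, limma adjusted p = 0.13) and LotjaGi1g1v0307500_LC (1.05, limma adjusted p = 0.145) were the others.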

How the data were processed

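PolyA RNA of the shoots was sequenced as strand-specific libraries. The submitters' processing notes name fastp, featureCounts 1.5.0-p3 and DESeq2 1.20.0, and the aligner is not given in the sources used here. The authors deposited a table of FPKM for protein-coding genes in which values below 1 are intact and values of 1 or more have lost their decimal point (53.0% of 725832 values). Whether strand was used and how reads of multi-copy families were assigned is not stated. The deposited FPKM values were restored by placing each point so that the value was a whole number of reads. Where several places were possible, the replicates decided and, after them, the sorting of the table by summed value. On simulated data with lost points 0 of 385636 values were placed wrongly. In the 6 libraries 18 genes kept more than 1 possible place.

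Genes of at least 1 FPKM in 3 or more libraries of a fit were tested on log2(FPKM + 1) with limma 3.58.1 (R 4.3.3; eBayes with trend, two-sided, Benjamini-Hochberg threshold 0.05). On simulated data limma recovered 96.0% of genes changed 2-fold and 100.0% of genes changed 4-fold, and called 0.1% of unchanged genes. The simulation drew every gene independently with the same dispersion and no deviation shared by a library. The real libraries do share deviations, so these rates check the procedure and do not carry over to the calls here. The comparison, the same one in WT shoots and their interaction used no block. Replicate numbers were taken to pair libraries where the deviations of every pair correlated above 0.1. In Ljasn1-2 they correlated by 0.48, 0.30 and -0.03, so the numbers were not taken as pairs. In WT they correlated by 0.71, 0.48 and 0.41 and met the rule, so the WT and interaction fits without a block leave a pairing out. Their counts with the block are therefore given beside those without it. The labels do not say that replicates are separate cultures beyond the pots, so p-values measure the spread between these pools.

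The genes and the 32 lists were chosen with earlier results of these data known. Lists were built from the descriptions in the table. The text names the asparagine synthetases, the 10 largest increases and 10 largest decreases among called genes without overlap, the 5 most abundant of these in each direction, up to 2 called members per list and direction (the most abundant member where fewer than 2 were called), and the 5 genes of smallest interaction p in each direction. Other named genes were chosen after their values were seen. Alternatives were a pseudocount of 0.1, no filter, quantile normalization, scaling to the same FPKM total, limma-voom on recovered reads, a replicate block, the 12 shoot libraries in one fit, and leaving out each library. Root libraries entered only the marker check, and no sequences were used.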

Additional observations from a re-analysis of the deposited data

Results flagged for a closer look

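The genes below are those of the report, or of the groups described under other observations, whose S over NS change differed between Ljasn1-2 and WT shoots by the interaction test (limma, Benjamini-Hochberg threshold 0.05). On the log2 scale the interaction was -3.23 for TIM14-1, -3.09 and -2.34 for the C family ABC transporters, -2.84 for NFXL1, -2.45 for SWEET10, -2.24 for CYP82A1, -1.99 for the parA-type glutathione S-transferase, -1.83 for RAP2-3, -1.83 for NDB2 and 0.91 for SOB FIVE-LIKE 6, with values per group in the report.

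A pair of neighbouring hydroquinone glucosyltransferases, which attach glucose to phenols, also differed. LotjaGi1g1v0598900 was at 2.89 FPKM in Ljasn1-2 S and 14.2 FPKM in Ljasn1-2 NS, against 3.02 FPKM in WT S and 2.21 FPKM in WT NS shoots (interaction -2.29), and the interaction of LotjaGi1g1v0599100 was -1.28. The other 3 were below 1 FPKM in every library outside Ljasn1-2 NS. Like TIM14-1, they passed the filter through Ljasn1-2 NS alone, so the order of their groups is set by this selection. Ethylene response factor 14 (LotjaGi5g1v0184300) was at 0.284 FPKM in Ljasn1-2 S and 3.56 FPKM in Ljasn1-2 NS, against 0.164 FPKM in WT S and 0.353 FPKM in WT NS (-1.62). The internal NAD(P)H dehydrogenase NDA1 (LotjaGi4g1v0050800) was at 0.403 FPKM in Ljasn1-2 S and 2.80 FPKM in Ljasn1-2 NS, against 0.281 FPKM in WT S and 0.317 FPKM in WT NS (-1.40). The alternative oxidase ubiquinol oxidase 1 (LotjaGi2g1v0344500), which passes electrons to oxygen without pumping protons, was at 0.313 FPKM in Ljasn1-2 S and 1.83 FPKM in Ljasn1-2 NS, against 0.289 FPKM in WT S and 0.150 FPKM in WT NS (-1.26).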

How the results depend on the processing

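In Ljasn1-2 the count of calls was between 1508 (no filter on low values) and 2814 (replicate block) under the alternatives that kept all libraries, with 2124 after quantile normalization, and 513 of the calls were of at least 2-fold. With the replicate block 1524 were higher and 1290 lower. Leaving out 1 library gave 930 to 2887 calls. In WT shoots 618 were called without the filter and 3722 with the replicate block, and leaving out libraries gave 317 to 2729. The block thus reversed the order of the genotypes, since without it 1918 genes were called in Ljasn1-2 and 996 in WT. The interaction called 21 genes with limma-voom, 95 with the replicate block and 17 to 38 with libraries left out. The first principal component took 46.3% of the variance at a pseudocount of 0.1. In Ljasn1-2, S and NS replicate 1 deviated together (0.48), whereas NS replicate 3 correlated best with S replicate 2 (0.38). In WT, S and NS replicate 1 also deviated together (0.71). There, S replicate 2 correlated with NS replicate 3 as well (0.40), and S replicate 3 with NS replicate 2 (0.32). Of the 124 named genes called, 35 lost the call under at least 1 alternative that kept all libraries (29 without the filter and 15 at the same FPKM total), and 0 reversed under any. NS libraries varied more than S libraries, and the cause was not tested.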

Other observations

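The groups below were formed after their values were seen, some of their genes also stand in a list above, and they are given as a description without support from the choice. Over all genes tested, 11.9% were called, 6.05% higher and 5.81% lower. Ethylene-responsive transcription factors were called 2 higher and 25 lower of 52 tested (median log2 fold change -0.60). ABR1 (LotjaGi4g1v0405900), a repressor of abscisic acid responses in Arabidopsis, was at 0.0651 FPKM in Ljasn1-2 S against 9.09 FPKM in Ljasn1-2 NS shoots on average (-3.21). ERF098 (LotjaGi5g1v0180400) was at 0.480 against 12.6 FPKM (-3.20), and ERF025 (LotjaGi2g1v0431300) at 0.623 against 10.4 FPKM (-2.92). ABR1 and ERF098 were below 1 FPKM in every S library and passed the filter through the NS libraries alone. TIFY proteins, repressors of jasmonate signalling, were called 1 higher and 4 lower of 9, with TIFY 11B (LotjaGi3g1v0411900) at 9.89 against 67.6 FPKM (-2.61). Abscisic acid receptors were called 0 higher and 4 lower of 8, with PYL4 (LotjaGi1g1v0074000) at 2.46 against 29.6 FPKM (-3.13).

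Inositol oxygenases, which open the inositol ring on the way to wall sugars, were called lower in all 3 genes tested, with inositol oxygenase 2 (LotjaGi2g1v0228200) at 0.721 against 6.35 FPKM (-2.10). That gene passed the filter through the NS libraries alone. Cytochromes P450 went mostly the other way, 25 higher and 6 lower of 81. Of 8 cysteine proteinases and vacuolar-processing enzymes 5 were called higher and 0 lower. Proteins of alternative respiration were called 1 higher and 4 lower of 12.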
